A study of Mus musculus with 10 samples.

Results

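Marker genes of the oligodendrocyte lineage, 9 of the 55573 gene entries of the deposited count table, were examined in sorted cortical cells of control and conditional Cdk7 knockout mice. They were chosen by gene name as markers that run from the precursor to the myelinating stage, and all 9 were found and passed the filter on low counts. The precursor and lineage genes are Pdgfra, Cspg4, Olig1, Olig2 and Sox10, and the later genes are Gpr17 and Bcas1, of committed precursors, and Cnp and Mbp, of myelinating cells. RNA came from the cortex of mouse pups on postnatal day 3, from cells sorted for the yellow fluorescent protein EYFP. All pups were NexCre/+ and R26EYFP/+, so the controls carry the driver and the reporter too. The 5 Ctrl libraries were Cdk7+/+ and the 5 Cdk7_KO libraries Cdk7lox/lox. The series is stated as an experiment with 5 mice per genotype. The labels do not say which mouse stands behind each library, and p-values measure the spread between these libraries, which may in part be technical. NexCre is a Cre recombinase in the Neurod6 locus, which acts in postmitotic glutamatergic neurons of the cortex and hippocampus. It is not known for activity in oligodendrocytes, and whether RNA of the 9 genes came from cells of the lineage in the sort or from the neurons was not tested. In such bulk samples, fewer cells of a type and less RNA per cell cannot be told apart.

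Oligodendrocytes make the myelin sheath around axons. They arise from dividing, migrating precursor cells, which carry the PDGF receptor alpha (Pdgfra) and the proteoglycan NG2 (Cspg4) and depend on PDGF for growth. The transcription factors OLIG2, OLIG1 and SOX10 specify the lineage and stay on through maturation, while the receptor GPR17 and the protein BCAS1 mark cells that have left the cycle and are about to myelinate. In the mouse cortex the first precursors come from the ventral forebrain and later ones from the cortex itself, and myelin is laid down after the first postnatal week.

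Upstream sequence is shown for members of both stages because the 2 stages are set side by side below. The table of RefSeq promoters (GRCm38.p6) matched 4 of the 9 members by symbol. The window runs from 250 to 101 bases before the RefSeq start site, 150 bases on the + strand that lie before the GENCODE start as well, and capitals mark matches to the motifs searched.
Pdgfra, chr5:75152001-75152150: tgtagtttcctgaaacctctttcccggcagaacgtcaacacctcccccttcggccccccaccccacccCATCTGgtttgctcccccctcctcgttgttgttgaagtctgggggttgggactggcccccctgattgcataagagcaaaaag
Cspg4, chr9:56864854-56865003: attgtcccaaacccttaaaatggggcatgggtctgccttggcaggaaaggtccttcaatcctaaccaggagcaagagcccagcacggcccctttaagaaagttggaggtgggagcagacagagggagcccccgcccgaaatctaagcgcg
Olig2, chr16:91225300-91225449: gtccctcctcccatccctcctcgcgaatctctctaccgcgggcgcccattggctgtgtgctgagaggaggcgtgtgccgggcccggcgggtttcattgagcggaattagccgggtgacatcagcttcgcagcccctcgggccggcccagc
Cnp, chr11:100574689-100574838: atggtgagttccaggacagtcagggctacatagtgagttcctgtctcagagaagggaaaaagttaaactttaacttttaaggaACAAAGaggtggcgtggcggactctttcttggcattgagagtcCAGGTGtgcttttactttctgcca
The motifs were the E-box CANNTG bound by basic helix-loop-helix factors, its form CAGCTG, which also counts as CANNTG, and the SOX cores ACAAAG and ACAATG, each on both strands. Pdgfra held 1 E-box, 182 bases before the start, and Cnp 1 E-box at 124 bases and 1 ACAAAG at 167 bases. The windows of Cspg4 and Olig2 held none of these letters. Of all 32851 promoter windows of this length and position, 49.3% held CANNTG, 7.52% CAGCTG, 10.4% ACAAAG and 6.66% ACAATG. The matches describe the letters of these windows only.

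Total counts lay between 23497621 and 31233466 per library. Levels are given in CPM, counts scaled to the library total. By Xist and Ddx3y counts, the libraries with replicate numbers 1 to 3 (2 Ctrl, 3 Cdk7_KO) were male and those numbered 4 to 6 (3 Ctrl, 2 Cdk7_KO) female, so sex and any other difference between these sets of numbers cannot be told apart. Cdk7 was at 15.7 ± 4.0 CPM in Ctrl against 5.16 ± 1.3 CPM in Cdk7_KO (SD, n = 5), with no overlap. The unadjusted exact permutation p was 0.0079, two-sided, the smallest that 5 against 5 libraries can give. Adjusted over all genes, the p of Cdk7 was 0.161 in edgeR and 0.263 in the permutation test. Thus 33.0% of the Ctrl mean of Cdk7 was left, but Cdk7 itself did not pass either adjusted test. The 10 neuronal markers of the projection neuron list summed to between 3995 and 5739 CPM per library, against 210.3 to 1103 CPM for the 9 oligodendrocyte lineage genes, up to 1309 CPM for radial glia markers and up to 1176 CPM for astrocyte markers. Tubb3, a tubulin of all neurons, made up 2703 CPM of it in the Ctrl mean, and Neurod2, of glutamatergic neurons, 597 CPM.

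The 9 genes were all lower on average in Cdk7_KO, but none differed beyond the spread between libraries once all genes were taken into account. Between 47.8% (Gpr17) and 63.2% (Sox10) of the Ctrl mean was left. Log2 fold changes of Cdk7_KO over Ctrl lay between -1.0 and -0.61 with a median of -0.88, against a median of 0.013 over the 15578 genes tested, of which 47.5% were negative. EdgeR's quasi-likelihood test was used with Benjamini-Hochberg adjustment over all genes. In it 0 of the 9 passed the threshold of 0.05 in either direction, and so did 0% of all genes. Cdk7 itself did not pass (edgeR adjusted p = 0.161), so failing this test does not show that a gene was unchanged. At an unadjusted p under 0.05, 6 of the 9 were lower (Cspg4, Olig1, Olig2, Bcas1, Cnp and Mbp), against 10.5% of all genes, and 0 were higher, against 4.9%. DESeq2 called 1 of the 9 lower, Cnp, against 3.02% of the genes to which it gave an adjusted p, and 0 higher, against 0.225%. Limma's voom called 0. In the exact permutation test the unadjusted p was 0.0159 for Cnp, 0.0397 for Cspg4 and Mbp, and between 0.0714 (Bcas1) and 0.238 (Pdgfra) for the others. Adjusted over all genes, the permutation p of the 9 lay between 0.273 (Cnp) and 0.648 (Pdgfra). In 0 of the 9 did all Cdk7_KO libraries lie below all Ctrl libraries, against 2.41% of all genes, and in 0 did all lie above, against 0.61%.

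**Figure D1:**
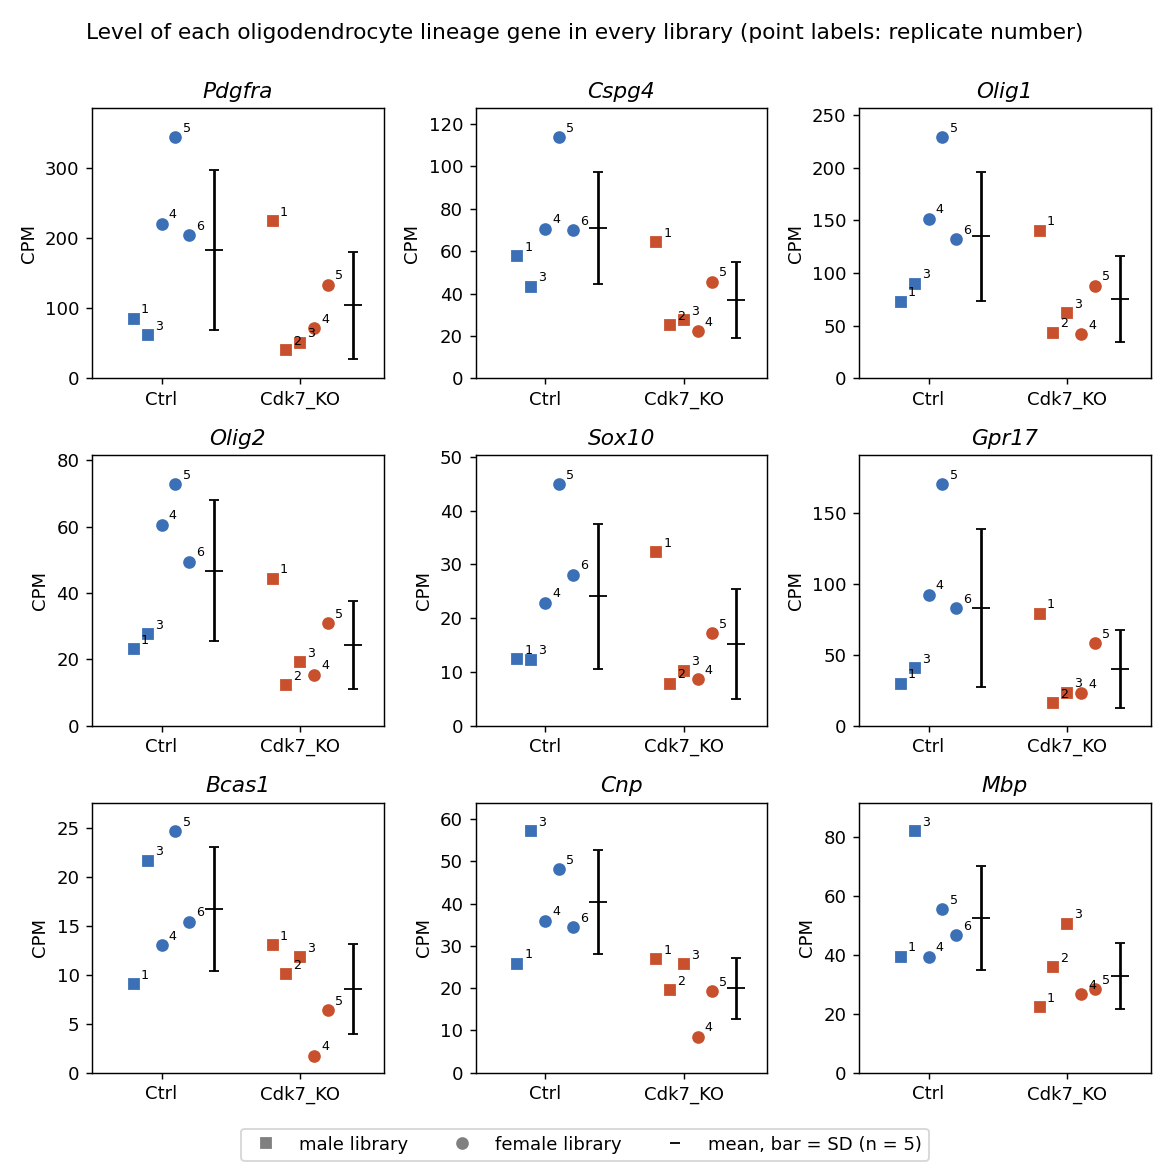
Level of each of the 9 genes in CPM (y axis, from 0) in the 5 Ctrl (blue) and 5 Cdk7_KO (red) libraries, squares for male and circles for female libraries, with the replicate number beside each point and the mean with its SD in black. Cdk7_KO replicate 1 lies among the Ctrl libraries for the precursor genes and Gpr17, while Ctrl replicate 3 is the highest library for Cnp and Mbp.

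Pdgfra encodes the receptor through which PDGF keeps precursors dividing (chromosome 5, 75152292 to 75198215 in GRCm38). Its levels in Ctrl were 85.4, 61.5, 221, 344 and 205 CPM in replicates 1, 3, 4, 5 and 6. In Cdk7_KO they were 225, 40.8, 51.1, 71.9 and 134 CPM in replicates 1 to 5. Thus 1 Cdk7_KO library was higher than all Ctrl libraries but replicate 5, and only 2 lay below the lowest Ctrl library. The means were 183 ± 114 and 104 ± 76.3 CPM (SD, n = 5), with a log2 fold change of -0.75 (SE 0.52, edgeR adjusted p = 0.520). The spread was wide in both groups, with an SD of 62.3% of the mean in Ctrl and 73.0% in Cdk7_KO.

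Cspg4, the NG2 proteoglycan of the precursor surface (chromosome 9, 56865033 to 56899870), was at 57.5, 43.2, 70.5, 114 and 70.0 CPM in the Ctrl libraries, in the same order. The Cdk7_KO libraries had 64.2, 25.2, 27.5, 22.4 and 45.7 CPM. Replicates 2, 3 and 4 of Cdk7_KO lay below all Ctrl libraries, and replicates 1 and 5 lay within their range. The log2 fold change was -0.88 (SE 0.30, edgeR adjusted p = 0.202, unadjusted exact permutation p = 0.0397). It had the smallest edgeR p among the 5 precursor and lineage genes.

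Pdgfra is also a gene of fibroblasts and Cspg4 of pericytes, so the markers of those cells are set beside them. Fibroblast and meningeal markers summed to 64.1, 97.9, 17.6, 27.6 and 69.2 CPM in the Ctrl libraries, with the highest sum in replicate 3, while Pdgfra was highest in replicate 5. Pericyte markers summed to 580.1, 313, 136, 149 and 145 CPM, with the highest sum in replicate 1, while Cspg4 was highest in replicate 5. In Cdk7_KO replicate 1, whose Pdgfra and Cspg4 were the highest of that genotype, the sums were 12.1 and 78.7 CPM, the second lowest of the 5 in both cases. The part of fibroblasts and pericytes in the levels of Pdgfra and Cspg4 was not tested.

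Olig2 and Olig1, neighbours on chromosome 16 (91225457 to 91228677 and 91269772 to 91271933), encode the helix-loop-helix factors of the lineage. Olig2 was at 23.1, 27.6, 60.6, 72.7 and 49.4 CPM in Ctrl against at 44.3, 12.2, 19.1, 15.3 and 30.9 CPM in Cdk7_KO. Olig1 was at 73.0, 90.0, 152, 229 and 132 CPM in Ctrl against at 140.4, 43.5, 61.8, 42.3 and 88.0 CPM in Cdk7_KO. Both were lowest among Ctrl in replicates 1 and 3 and highest among Cdk7_KO in replicate 1. The log2 fold changes were -0.88 (SE 0.38, edgeR adjusted p = 0.290) for Olig2 and -0.79 (SE 0.36, edgeR adjusted p = 0.316) for Olig1. The pair kept a narrow ratio. Olig1 counts were 250.1 to 327% of Olig2 counts in Ctrl and 276 to 358% in Cdk7_KO, while Olig2 itself varied from 12.2 to 72.7 CPM.

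Sox10 encodes the SOX factor that drives myelin genes together with Myrf (chromosome 15, 79154908 to 79165240). It was at 12.3, 12.3, 22.9, 44.9 and 28.1 CPM in Ctrl against at 32.2, 7.82, 10.2, 8.66 and 17.2 CPM in Cdk7_KO. Replicates 1 and 3 of Ctrl were level with each other, and Cdk7_KO replicate 1 lay above all Ctrl libraries but replicate 5. Its log2 fold change of -0.61 (SE 0.44, edgeR adjusted p = 0.546) was the smallest of the 9 genes in size.

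Gpr17, a receptor of committed precursors (chromosome 18, 31942997 to 31949636), had the largest log2 fold change of the 9 genes in size, close to that of Cnp. Its levels were 29.7, 40.5, 92.3, 170.1 and 82.6 CPM in Ctrl against 78.9, 15.6, 23.1, 23 and 58.0 CPM in Cdk7_KO. The log2 fold change was -1.0 (SE 0.51, edgeR adjusted p = 0.372). Over the 10 libraries its log2 CPM followed the mean of the 5 precursor genes with a Pearson r of 0.99, and the mean of the 3 other later genes with 0.45, given as a description of libraries that share depth, genotype and sex. Gpr17 lies within Lims2, on the other strand, and the strand setting of the counting is not given. Lims2 was low, at 4.50 CPM in Ctrl against 4.45 CPM in Cdk7_KO.

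Bcas1, a marker of early myelinating cells (chromosome 2, 170346991 to 170427845), had the lowest CPM of the 9 genes. It was at 9.06, 21.7, 13, 24.7 and 15.4 CPM in Ctrl against at 13.1, 10.0, 11.8, 1.72 and 6.38 CPM in Cdk7_KO. Only Cdk7_KO replicates 4 and 5 lay below all Ctrl libraries. The 1.72 CPM of replicate 4 rest on 41 counts. The log2 fold change was -0.92 (SE 0.42, edgeR adjusted p = 0.320).

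Cnp, which encodes an enzyme of the myelin membrane (chromosome 11, 100574904 to 100591729), had the smallest p of the 9 genes. It was at 25.8, 57.1, 36.0, 48.2 and 34.5 CPM in Ctrl against at 26.9, 19.5, 25.6, 8.5 and 19.3 CPM in Cdk7_KO. Replicates 2 to 5 of Cdk7_KO lay below the lowest Ctrl library, and replicate 1 lay just above it. The means were 40.3 ± 12.3 and 20.0 ± 7.28 CPM (SD, n = 5), with a log2 fold change of -0.97 (SE 0.27, edgeR adjusted p = 0.167, unadjusted exact permutation p = 0.0159). With sex as a second factor, edgeR called Cnp lower (log2 fold change -1.09, adjusted p = 0.0360), as it did 4.4% of all genes, with 0 members and 0.295% of all genes higher, and DESeq2 gave an adjusted p of 0.0113. Over all alternatives the adjusted p of Cnp lay between 0.0113 and 0.444. Cnp overlaps Dnajc7 on the other strand over 8912 bases. Dnajc7 was at 212 CPM in Ctrl against 224 CPM in Cdk7_KO, a log2 fold change of 0.13, the other direction from Cnp.

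Mbp encodes myelin basic protein, and from the same gene the golli transcripts, which are also made outside the lineage, in neurons and immune cells (chromosome 18, 82475146 to 82585637). Counts are for the whole gene and do not separate the forms. Mbp was at 39.3, 81.7, 39.3, 55.3 and 46.7 CPM in Ctrl against at 22.3, 35.7, 50.5, 26.6 and 28.3 CPM in Cdk7_KO. It was lowest in Cdk7_KO replicate 1, where the precursor genes were highest of that genotype. The log2 fold change was -0.64 (SE 0.24, edgeR adjusted p = 0.229, unadjusted exact permutation p = 0.0397), and it was -0.42 without Ctrl replicate 3. Across the 10 libraries Mbp showed no common course with the precursor genes (Pearson r of 0.01 with their mean), where Cnp had 0.57 and Bcas1 0.54.

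Per length of exon, Olig1 had the highest level of the 9 genes, at 62.5 ± 28.3 CPM per kilobase in Ctrl (SD, n = 5). Olig2 (18.5), Pdgfra (18.3) and Gpr17 (16.0) followed and did not differ beyond their SDs of 8.39, 11.4 and 10.7. Then came Cnp (11.1), Sox10 (7.90), Mbp (6.2), Cspg4 (5.95) and Bcas1 (4.44 CPM per kilobase), where each neighbour lay within the SD of the one before it. Lengths are of all annotated exons together, which understates genes with many alternative exons.

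**Figure D2:**
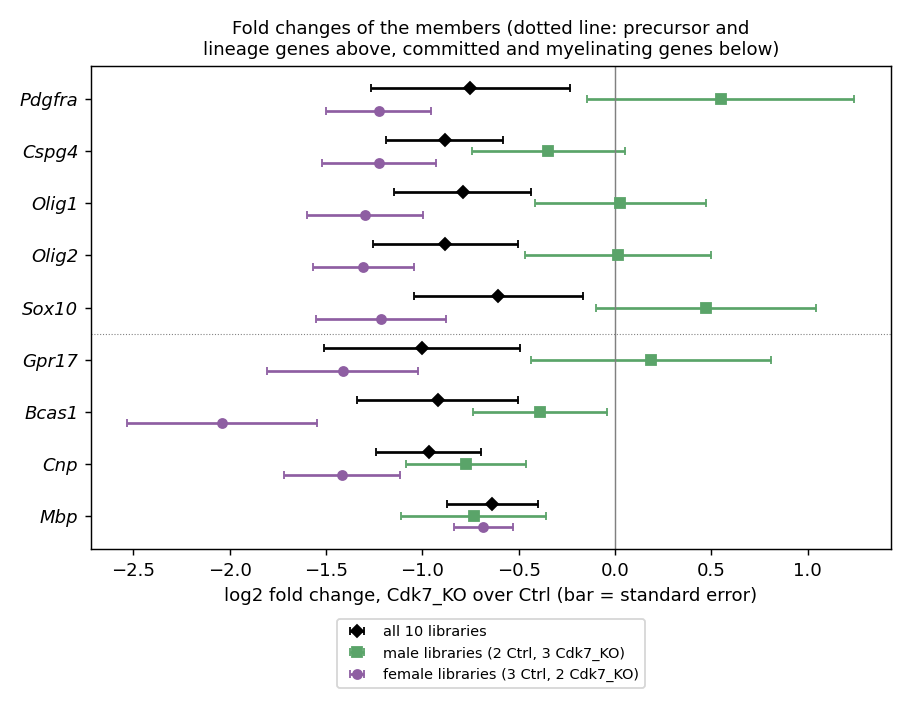
Log2 fold change of Cdk7_KO over Ctrl (x axis) with its standard error for each of the 9 genes, in all 10 libraries (black), in the 5 male libraries (green) and in the 5 female libraries (violet). The female values are all negative, while those of Pdgfra, Olig1, Olig2, Sox10 and Gpr17 are at or above 0 in the male libraries, and Mbp is nearly the same in both.

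The 2 sexes, or sets of replicate numbers, gave different values. In the female libraries all 9 genes were negative, against 51.6% of all genes (median -1.30, against -0.015 over all genes), and in all 9 both Cdk7_KO libraries lay below the 3 Ctrl libraries, as did 27.5% of all genes. All 9 were at an unadjusted p under 0.05 in edgeR there, against 12.3% of all genes (0 higher, against 6.92%), and 0 passed the adjustment (smallest adjusted p 0.0769, for Olig2). In the male libraries the median was 0.013, and 4 of 9 were negative (Cspg4, Bcas1, Cnp and Mbp), against 47% of all genes. There 0 passed, and 1, Cnp, was lower at an unadjusted p under 0.05, against 8.19% of all genes, and 0 were higher, against 2.27%. In 0 of 9 did all male Cdk7_KO libraries lie below both male Ctrl libraries, against 16.1% of all genes. Pdgfra was at 0.55 (SE 0.69) in the male and at -1.23 (SE 0.27) in the female libraries. Mbp was at -0.73 (SE 0.37) and -0.68 (SE 0.15). A test of the difference itself, the interaction of genotype and sex in edgeR, passed for 0 of the 9 genes (adjusted p from 0.665 to 0.986). At an unadjusted p under 0.05 it gave 2, Sox10 (difference of log2 fold changes -1.69, SE 0.76) and Bcas1 (-1.66, SE 0.68), against 7.34% of all genes.

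One library carried much of the male result. Without Cdk7_KO replicate 1, a choice made after its values were seen, the male median was -0.68, and Pdgfra was at -0.68 and Olig2 at -0.70. In 7 of the 9 genes, all but Bcas1 and Mbp, the 2 other male Cdk7_KO libraries lay below both male Ctrl libraries, as did 22.8% of all genes. Over all 10 libraries, leaving out Cdk7_KO replicate 1 moved the median of the 9 genes from -0.88 to -1.14, and leaving out Ctrl replicate 5 moved it to -0.62. In both cases 0 members passed in edgeR. Among the Ctrl libraries alone, the 2 male ones had 61.5 and 85.4 CPM of Pdgfra and the 3 female ones 205 to 344 CPM. With genotype in the model, the sex term did not pass for any of the 9 genes (edgeR adjusted p from 0.378 to 0.678), while 0.0642% of all genes were called higher and 0.289% lower in female libraries. It was positive for the 5 precursor genes and Gpr17 (female over male, log2 0.30 to 0.90) and negative for Bcas1, Cnp and Mbp (-0.61 to -0.36).

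Precursor genes were set against later genes by the difference of their mean log2 levels in each library. The difference, later minus precursor, was -0.77 ± 0.58 in Ctrl and -0.88 ± 0.62 in Cdk7_KO (log2, SD, n = 5). The difference between genotypes was -0.12 over all libraries, -0.35 in the male and -0.18 among female libraries, with no test. The median log2 fold change was -0.79 for the 5 precursor genes and -0.94 for the 4 later genes, both lower. Libraries of 1 genotype spread widely. The later minus precursor difference was 0.24 in Ctrl replicate 3 and between -1.15 and -0.81 in the other Ctrl libraries. In Cdk7_KO it was -1.47, -0.22, -0.20, -1.32 and -1.21 in replicates 1 to 5. Both female Cdk7_KO libraries lay below the 3 female Ctrl libraries, within a range from -1.32 to -1.01, and the male libraries of the 2 genotypes overlapped, between -1.47 and 0.24.

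**Figure D3:**
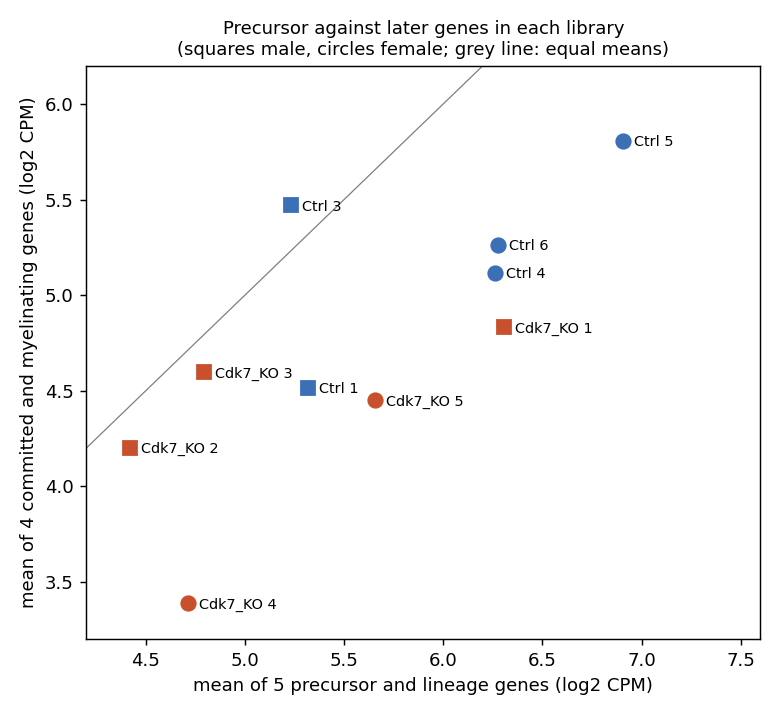
Mean log2 CPM of the 5 precursor and lineage genes (x axis) against that of the 4 later genes (y axis) in each library, Ctrl in blue and Cdk7_KO in red, squares for male and circles for female libraries, with a grey line where both means are equal. Ctrl replicate 3 is the only library above the line, and Cdk7_KO replicate 4 has the lowest mean of the later genes.

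Shares of counts between 2 genes did not all give the same order of the female libraries as the mean difference. Cnp counts were 14.0 to 16.9% of Pdgfra counts in the 3 female Ctrl libraries and 11.8 and 14.5% in the 2 female Cdk7_KO libraries. In the male libraries they were 30.2 and 92.9% in Ctrl and 12, 47.8 and 50.2% in Cdk7_KO. Thus the genotypes overlapped in both sexes. Mbp counts were 17.8, 16.1 and 22.8% of Pdgfra counts in the female Ctrl libraries, against 37.0 and 21.2% in the female Cdk7_KO libraries. In the male libraries Mbp was at 46.0 and 133% in Ctrl and at 9.92, 87.6 and 99.0% in Cdk7_KO. Gpr17 kept a steadier share, at 34.7 to 65.8% of Pdgfra counts in Ctrl and 31.9 to 45.2% in Cdk7_KO.

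Further genes of each stage came from lists written with earlier results of these data known. Of 18 other precursor genes 17 were tested and 0 passed in edgeR, 5 were lower and 0 higher at an unadjusted p under 0.05, against 10.5% and 4.9% of all genes. The median log2 fold change was -0.53, with -0.02 in male and -0.97 in female libraries. DESeq2 called 1 gene of the list lower, Ptprz1, against 3.02% of the genes to which it gave an adjusted p. The most abundant, Ptprz1, a receptor phosphatase shared with radial glia, was at 919 ± 147 CPM in Ctrl against 578 ± 133 CPM in Cdk7_KO (SD, n = 5) and at -0.62 (edgeR adjusted p = 0.161, DESeq2 adjusted p = 0.00502). The endothelin receptor gene Ednrb, which astrocytes also express, was at -0.92 (edgeR adjusted p = 0.176). Cacng4, a subunit of AMPA receptors that neurons express too, was at 0.06, with 288 CPM in Ctrl against 289 CPM in Cdk7_KO. Susd5 did not pass the filter on low counts.

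Of 14 other genes of committed precursors, all tested, 0 passed in edgeR, and 2 were lower and 0 higher at an unadjusted p under 0.05, a share near the 10.5% of all genes that were lower. The median was -0.32, with 0.03 in male and -0.60 in female libraries. Over all genes the medians were 0.016 and -0.015, so the male value lay near that of all genes. The difference between the sexes was not tested for this list. Those 2 were Itpr2, an intracellular calcium channel, at 23.4 ± 6.10 CPM in Ctrl against 11.4 ± 4.49 CPM in Cdk7_KO (SD, n = 5), and Tns3, a focal adhesion protein of premyelinating cells, at 41.4 ± 7.41 and 20.3 ± 8.35 CPM. Their log2 fold changes were -1.0 and -0.98. Of the 14 genes DESeq2 called these 2 lower (adjusted p = 0.00734 for both), against 3.02% of the genes to which it gave an adjusted p. In these 2 of the 14 all Cdk7_KO libraries lay below all Ctrl libraries, against 2.41% of all genes. The neuronally expressed members Fyn (0.07) and Nfasc (0.02) were the most abundant and stayed within 0.1 of 0.

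Of 21 other myelin and mature genes 13 were tested. All 13 were negative, against 47.5% of all genes, 0 passed in edgeR, and 8 were lower at an unadjusted p under 0.05, against 10.5%. The median was -0.87, with -0.65 in male and -1.26 in female libraries. DESeq2 called 2 genes of the list lower, against 3.02% of the genes to which it gave an adjusted p. In 3 of the 13 all Cdk7_KO libraries lay below all Ctrl libraries, against 2.41% of all genes. Ugt8a, the enzyme that makes the myelin lipid galactosylceramide, was at 9.06 ± 2.41 CPM in Ctrl against 3.92 ± 1.63 CPM in Cdk7_KO (SD, n = 5), with a log2 fold change of -1.16 with no overlap between groups (edgeR adjusted p = 0.161, DESeq2 adjusted p = 0.00734). Myrf, the transcription factor needed for myelin genes, was at -1.32 (edgeR adjusted p = 0.187, DESeq2 adjusted p = 0.0329). Adamts4, a protease, was at -0.36. The genes of mature sheaths were near the floor. Opalin had 0 counts in all libraries, and Mog, Mobp, Ermn, Aspa, Hapln2 and Nkx6-2 were among those too low to be tested, with Ctrl means of at most 0.463 CPM.

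**Figure D4:**
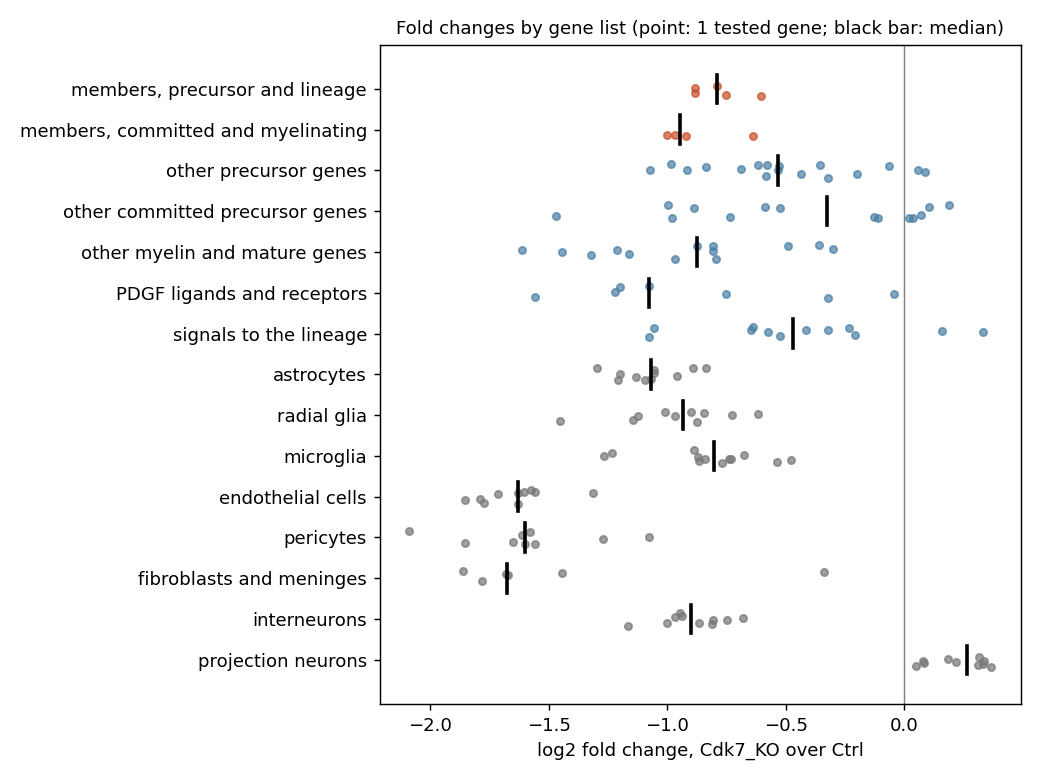
Log2 fold change of Cdk7_KO over Ctrl (x axis) of each tested gene in the 2 groups of members (red), the further lineage and signalling lists (blue) and the marker lists of other cell types (grey), with a black bar at the median of each list. The members (medians -0.79 and -0.94) lie among the lists of astrocytes, radial glia, microglia and interneurons, and the projection neuron markers lie above 0.

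PDGF and other signals that reach precursors were looked at as ligands and receptors. Pdgfa, the ligand of PDGF receptor alpha that neurons and astrocytes make, was at 35 ± 3.75 CPM in Ctrl against 27.1 ± 4.83 CPM in Cdk7_KO (SD, n = 5), with a log2 fold change of -0.32 (SE 0.12, edgeR adjusted p = 0.226). Pdgfd was at -1.22 at a low level (0.920 and 0.380 CPM), and Pdgfrb, the receptor of pericytes, at -1.56 (SE 0.52, edgeR adjusted p = 0.193). Of the 7 PDGF ligands and receptors, Pdgfra among them, 0 passed and 5 were lower at an unadjusted p under 0.05, against 10.5% of all genes. Of 15 signals to the lineage 12 were tested, 0 passed, and 3 were lower at an unadjusted p under 0.05, against the same 10.5%. DESeq2 called 1 signal lower, Jag1, against 3.02% of the genes to which it gave an adjusted p. In 1 of the 12, Jag1 again, all Cdk7_KO libraries lay below all Ctrl libraries, against 2.41% of all genes. Jag1, a Notch ligand, was at 13.7 ± 3.95 CPM in Ctrl against 6.26 ± 2.14 CPM in Cdk7_KO (SD, n = 5), with a log2 fold change of -1.08 with no overlap (edgeR adjusted p = 0.161, DESeq2 adjusted p = 0.00430). The neuronal surface genes Lingo1, an inhibitor of maturation, and Cntn1, an axonal adhesion molecule, were at 0.16 and -0.21.

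Markers of other cells that the driver does not mark were lower on average too. Of 11 tested astrocyte markers 10 were lower at an unadjusted p under 0.05 in edgeR (median -1.07, with Slc1a3 at -1.05 and Aqp4 at -1.20), of 10 radial glia markers 10 (median -0.93, with Fabp7 at -0.97 and Notch1 at -1.01), and of 12 microglial markers 6 (median -0.80, with Csf1r at -0.87 and C1qa at -0.89). The medians were -1.63 for endothelial cells (Cldn5 -1.63, Flt1 -1.79), -1.60 for pericytes (Rgs5 -1.60, Notch3 -1.27), -1.68 for fibroblasts and meninges (Col1a2 -1.86, Col3a1 -1.78) and -0.90 for interneurons (Dlx1 -0.86, Maf -1.0). Projection neuron markers had a median of 0.27, with Neurod6 at 0.34, Tbr1 at 0.37 and Tubb3 at 0.19. Of these, 10 of 10 endothelial, 8 of 9 pericyte, 3 of 6 fibroblast and 1 of 10 interneuron markers tested were lower at an unadjusted p under 0.05, against 10.5% of all genes, a share that the interneuron markers did not exceed. Of the 10 projection neuron markers 3 were higher at an unadjusted p under 0.05, against 4.9% of all genes. Interneuron markers had medians of 0.39 (male) and -2.10 (female). In edgeR 0 genes of these lists passed the adjustment. DESeq2 called 5 of the 10 radial glia, 2 of the 9 pericyte and 1 of the 10 endothelial markers lower, against 3.02% of the genes to which it gave an adjusted p. It called 0 astrocyte, microglial, fibroblast, interneuron and projection neuron markers. No marker of these lists was at 0 in all libraries. The summed level of astrocyte markers ranged from 561 to 1176 CPM in Ctrl against from 131 to 674 CPM in Cdk7_KO, and that of interneuron markers from 86.2 to 436 and from 24.6 to 305 CPM. The part of these cells in the result on the 9 genes was not tested.

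The lists differed in which libraries were high. The 5 precursor genes summed to 251, 235, 526, 805 and 484 CPM in Ctrl against to 506, 129, 170, 161 and 316 CPM in Cdk7_KO. Interneuron markers had 86.2, 190, 381, 436 and 268 CPM in Ctrl against 305, 87.3, 165, 24.6 and 131 CPM in Cdk7_KO, with Ctrl replicate 5 highest and Cdk7_KO replicate 1 highest of its genotype, as for the precursor genes. That library was also the highest Cdk7_KO library for the 4 later genes (141 CPM), radial glia markers (834 CPM) and microglial markers (238 CPM). Microglial markers, with 151, 451, 204, 261 and 184 CPM in Ctrl, were highest in Ctrl replicate 3, as were Cnp, Mbp and the further myelin genes (73.1, 120, 71.1, 103 and 74.5 CPM). Astrocyte (1176 CPM) and fibroblast markers (97.9 CPM) were highest in Ctrl replicate 3 too, while the sum of the 4 later genes was highest in Ctrl replicate 5 (298 CPM). Endothelial markers were highest in Ctrl replicate 1, at 896 CPM against at most 319 CPM elsewhere, where the 9 genes had their lowest sum among Ctrl (355 CPM). In Cdk7_KO replicate 4 the astrocyte, radial glia, microglial, vascular, fibroblast and interneuron sums were each the lowest of the 10 libraries.

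**Figure D5:**
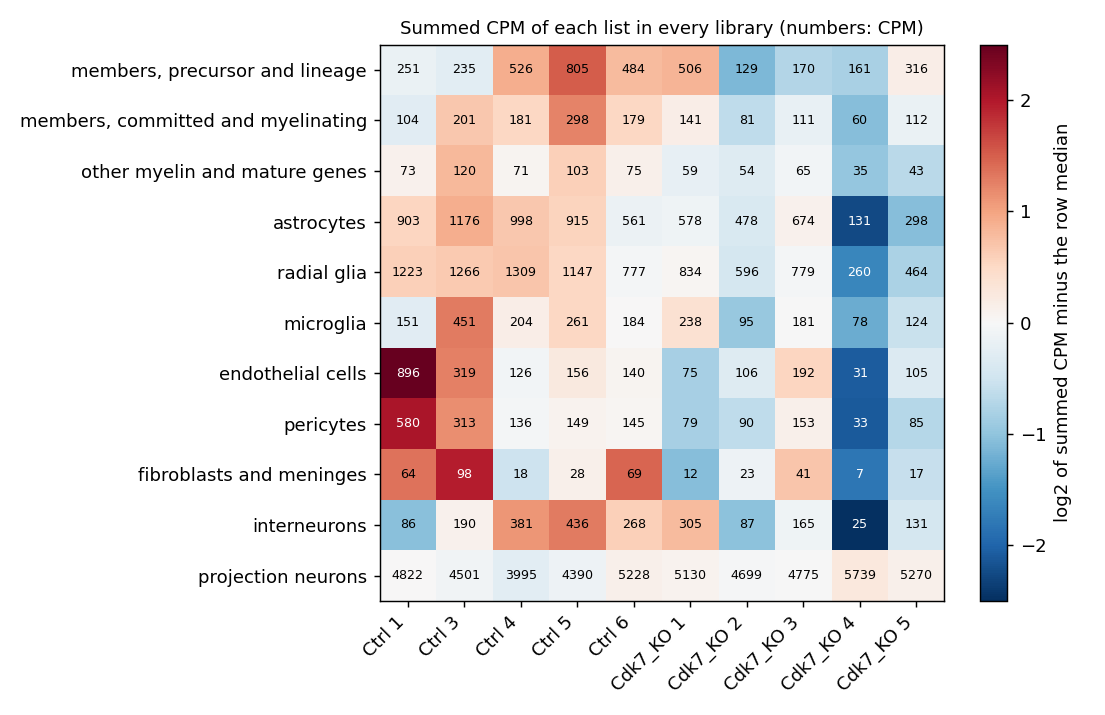
Summed CPM of each list (rows, with the value in each cell) in each library (columns), coloured by the log2 of the sum minus the median of its row. Replicate 1 is the highest Cdk7_KO library for both groups of members and for radial glia, microglial and interneuron markers. Ctrl replicate 3 is the highest library for the further myelin genes and for astrocyte, microglial and fibroblast markers. The later members are highest in Ctrl replicate 5.

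The genes most like the 5 precursor genes were looked for among 13922 genes with a mean of at least 1 CPM, by Pearson r of log2 CPM with the mean of the 5 over the 10 libraries. They were Scrg1 (r 0.99), Sox8 (0.99), Lhfpl3 (0.97), Il1rap (0.97), Slitrk2 (0.97) and Xylt1 (0.96). Sox8 and Lhfpl3 stood on the list of further precursor genes. Those most like the 4 later genes were Chrna4 (0.98), Ugt8a (0.96), Rin2 (0.96), Plekhb1 (0.95), Crybb1 (0.95) and Bmper (0.95). The 2 sets had 0 genes in common. These values describe likeness over libraries that share genotype, sex and depth, and the best of so many genes are high by selection.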

How the data were processed

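PolyA RNA of 5 Ctrl and 5 Cdk7_KO samples was made into 10 stranded libraries, per the labels' protocols. Values in the deposited table are raw counts, whole numbers for each gene. STAR, Salmon and GRCm38 are named in the submitters' processing notes, while versions, counter and strand setting were not given in the sources used here. All columns were matched by library name, and 0 were left over. Libraries compared in pairs differed by a chi-square of at least 10.5 per gene, well above sampling noise, and all were kept as separate samples.

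The tests used edgeR 4.0.16 under R 4.3.3 (filterByExpr with a minimum count of 10, TMM factors, glmQLFit and glmQLFTest, genotype alone, Benjamini-Hochberg adjustment over 15578 genes at 0.05). Standard errors come from the F statistic. CPM uses library totals, and log2 CPM uses TMM factors and a prior count of 2. Exact permutation tests ran on log2(CPM + 1) over all assignments of libraries to genotypes, two-sided. DESeq2 1.42.0 and limma 3.58.1 (voom) were alternatives. For symbols with several IDs, the one with most counts was kept. Coordinates and exon lengths are from GENCODE M21. The tests were tried on simulated counts first. There edgeR recovered 40% of the genes changed 1.5-fold and 54% of those changed 2-fold, with 9 false calls. DESeq2 recovered 48% and 72%, with 37 false calls.

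The members and lists were chosen with earlier results of these data known. Named are the 9 members and Cdk7, genes of each further list among its 2 of smallest p and 2 most abundant, those that missed the filter, and the 6 genes most like each group. Lims2 and Dnajc7 were named for their overlap. Some genes that this rule names are not reported here. Alternatives were other tools, scalings and filters, sex as a factor, a block for the replicate number, each library left out and each sex alone. The sex term, the male libraries without 1 library, the balance without Gpr17 and the libraries of the block without it were added after the data were seen.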

Additional observations from a re-analysis of the deposited data

Results flagged for a closer look

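In Ctrl replicate 3 the later genes lay 0.24 (log2) above the precursor genes, while the difference was between -1.15 and -0.81 in the other 4 Ctrl libraries. The gap from this library to the nearest other took 0.754 of the range of the group, above the critical value of 0.71 for 5 samples. Of 22 such checks of the 9 genes, Cdk7 and this difference in each genotype, it was the only one to pass, and chance flags about 1 group in 20. In the same library microglial markers summed to 451 CPM, against 151 to 261 CPM in the other Ctrl libraries, and astrocyte markers to 1176 CPM, against 561 to 998 CPM. The part of those cells in the difference was not tested.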

How the results depend on the processing

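Over 22 alternatives Cspg4, Bcas1, Cnp and Mbp kept a negative log2 fold change, and Cnp was the only one of the 9 genes to pass in any of them, in DESeq2 and with sex as a factor, so that 1 member was called lower in each. In the male libraries alone the median of the 9 genes was 0.013 and that of the precursor genes 0.027, with Pdgfra at 0.55, Olig1 at 0.027, Olig2 at 0.013, Sox10 at 0.47 and Gpr17 at 0.18. With 1 library left out, the median of the 9 genes ranged from -1.14 to -0.62, that of the precursor genes from -1.17 to -0.52 and that of the later genes from -1.11 to -0.69, and 0 members passed.

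The difference of later and precursor genes between genotypes was -0.12, and from -0.29 to 0.13 with 1 library left out. It was positive without Ctrl replicate 3 (0.13) and without Cdk7_KO replicate 1 (0.03). With Mbp left out of the later genes it was -0.22 (-0.26 in male, -0.45 in female libraries). With Gpr17 left out it was -0.09 (-0.44 in male, -0.18 in female libraries). Over all genes edgeR called 0, and 561 were called by DESeq2, 732 with sex as a factor, 1 with no filter, 5 without Cdk7_KO replicate 1 (0 to 5 with 1 library left out) and 5 with the replicate block. Cdk7 passed in DESeq2 (log2 fold change -1.54), with no filter (-1.54), with sex as a factor (-1.43) and without Cdk7_KO replicate 1 (-1.68, range over libraries left out -1.68 to -1.44).

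The replicate numbers were not taken as pairs, because the labels do not say what they share and not every correlation of deviations was over 0.1. It was -0.10, 0.31, 0.14 and 0.17 for the numbers 1, 3, 4 and 5, and 3 of the 4 numbers were most like their own. On those 8 libraries 5 genes were called with the replicate block and 0 without it, and 0 members in both. Mbp was at -0.69 with the replicate block (edgeR adjusted p = 0.0825) and -0.70 without it (adjusted p = 0.273). Depth limits Bcas1 most, with 41 to 698 counts per library.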
